A study of Mus musculus with 57 samples.

Results

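A set of 9 genes of the extracellular signal-regulated kinase (ERK) pathway was followed in the prefrontal cortex of young mice: the ERK1 kinase gene Mapk3 and 8 genes for feedback inhibitors or targets of the pathway, Spry1, Spry2, Spry4, Spred1, Spred2, Dusp4, Dusp6 and Etv5. The members were taken by gene symbol, and all 9 were found among 51456 gene identifiers and were among the 16659 genes abundant enough to be tested, with a mean of at least 10. They were chosen by their measured differences in expression between the 6 arms of genotype and drug, together with their place in the pathway, and the exact values used are not recorded. All differences between drugs and genotypes are therefore a description here, and the p-values printed with them are those of the fit over all genes, not a test of the choice. The RNA came from 57 C57BL/6N mice of both sexes, either heterozygous for Shank2 (HT, 30 libraries) or wild type (WT, 27 libraries). Pups received vehicle, the serotonin reuptake inhibitor fluoxetine or the mood stabilizer lithium through the mother's milk from postnatal day 3 to 24, and tissue was taken on day 25. There were 8 WT vehicle, 10 HT vehicle, 10 WT fluoxetine, 10 HT fluoxetine, 9 WT lithium and 10 HT lithium libraries. The labels give neither the Shank2 allele nor the doses nor the litters, so the mice of a group may share a litter. Pups of a dam share the drug in her milk, so WT and HT mice on a drug may also be littermates. Differences between drugs and between litters therefore cannot be told apart here. The p-values reflect the spread among these libraries and nothing wider, and that spread may be partly technical.

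The ERK kinases, of which Mapk3 encodes ERK1, are the last kinases of a cascade that runs from receptor tyrosine kinases through Ras, Raf and MEK. Active ERK switches on genes whose products restrain the same cascade: Sprouty and SPRED proteins act at the level of Ras and Raf, and dual-specificity phosphatases remove the activating phosphates from ERK itself. The levels of these feedback transcripts are therefore widely read as a record of recent ERK signalling. In cortical neurons the pathway is engaged by growth factors and by synaptic activity.

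Shank2, the check of the genotype labels, had a normalized count of 4388 ± 322 in HT (SD, n = 30) and 9882 ± 1086 in WT (SD, n = 27), and no HT library reached any WT library. Values are normalized estimated counts, with totals of 30.38 to 33.23 M per library (M, mega), and the number of reads behind a value is unknown. The libraries differed in a trend of expression with transcript length that moved with the drug: its rank correlation was above 0 in 3 of 18 vehicle, 15 of 20 fluoxetine and 15 of 19 lithium libraries. The lowest, -0.3337, belonged to WT vehicle male replicate 2, a library that stood apart in this trend. It also had the lowest median correlation with the other libraries (0.968). HT fluoxetine male replicate 3 (0.970) and WT vehicle female replicate 1 (0.977) came next. Of the 10 marker lists for cell types and neighbouring tissues, those of the olfactory bulb and of striatal projection neurons varied most between libraries. The summed level of the 10 olfactory bulb markers ran from 1062 to 20943 in WT vehicle, 1263 to 6399 in HT vehicle, 1101 to 16775 in WT fluoxetine, 1603 to 12391 in HT fluoxetine, 1418 to 5546 in WT lithium and 958 to 13551 in HT lithium. Its marker Lhx1 was at 0 in some libraries. The summed level of the 10 striatal markers ran from 7141 to 34174 in WT vehicle, 7729 to 9357 in HT vehicle, 6994 to 27344 in WT fluoxetine, 6974 to 22115 in HT fluoxetine, 6975 to 15344 in WT lithium and 7256 to 16995 in HT lithium. The cortical excitatory neuron markers were present in all libraries, with sums of 155113 to 217475. These are bulk samples, in which fewer cells of a type and less RNA per cell cannot be told apart.

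Mapk3, the gene for ERK1 (ENSMUSG00000063065, chromosome 7, 126759601 to 126765819, plus strand, GRCm38), was lower under lithium in both genotypes and close to vehicle under fluoxetine. Under vehicle the normalized count of Mapk3 ran from 3873 to 5317, median 4669, in WT and from 4084 to 5196, median 4633, in HT. Under lithium it ran from 3524 to 4360.5, median 3743, in WT and from 3452 to 4825, median 3889, in HT. Under fluoxetine it ran from 4054 to 4814, median 4376, in WT and from 3988 to 6463, median 4556, in HT. All 9 WT lithium libraries lay under the WT vehicle median and 7 of them under the lowest WT vehicle library, while in HT 9 of 10 lay under the vehicle median and 7 under the lowest. The ranges of lithium and vehicle overlapped in both genotypes. The means were 4557 ± 505 in WT vehicle and 4634 ± 355 in HT vehicle against 3800.4 ± 240.1 in WT lithium and 3961 ± 448 in HT lithium (SD, n = 8, 10, 9 and 10). The log2 difference of lithium from vehicle over both genotypes was -0.25 ± 0.04 (SE, limma, adjusted p = 8.42e-05), a fold of 0.843. It was -0.26 ± 0.06 in WT and -0.23 ± 0.06 in HT. Against fluoxetine the difference was -0.23 ± 0.04 (adjusted p = 0.00044), and 18 of 19 lithium libraries were under the fluoxetine median.

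**Figure D1:**
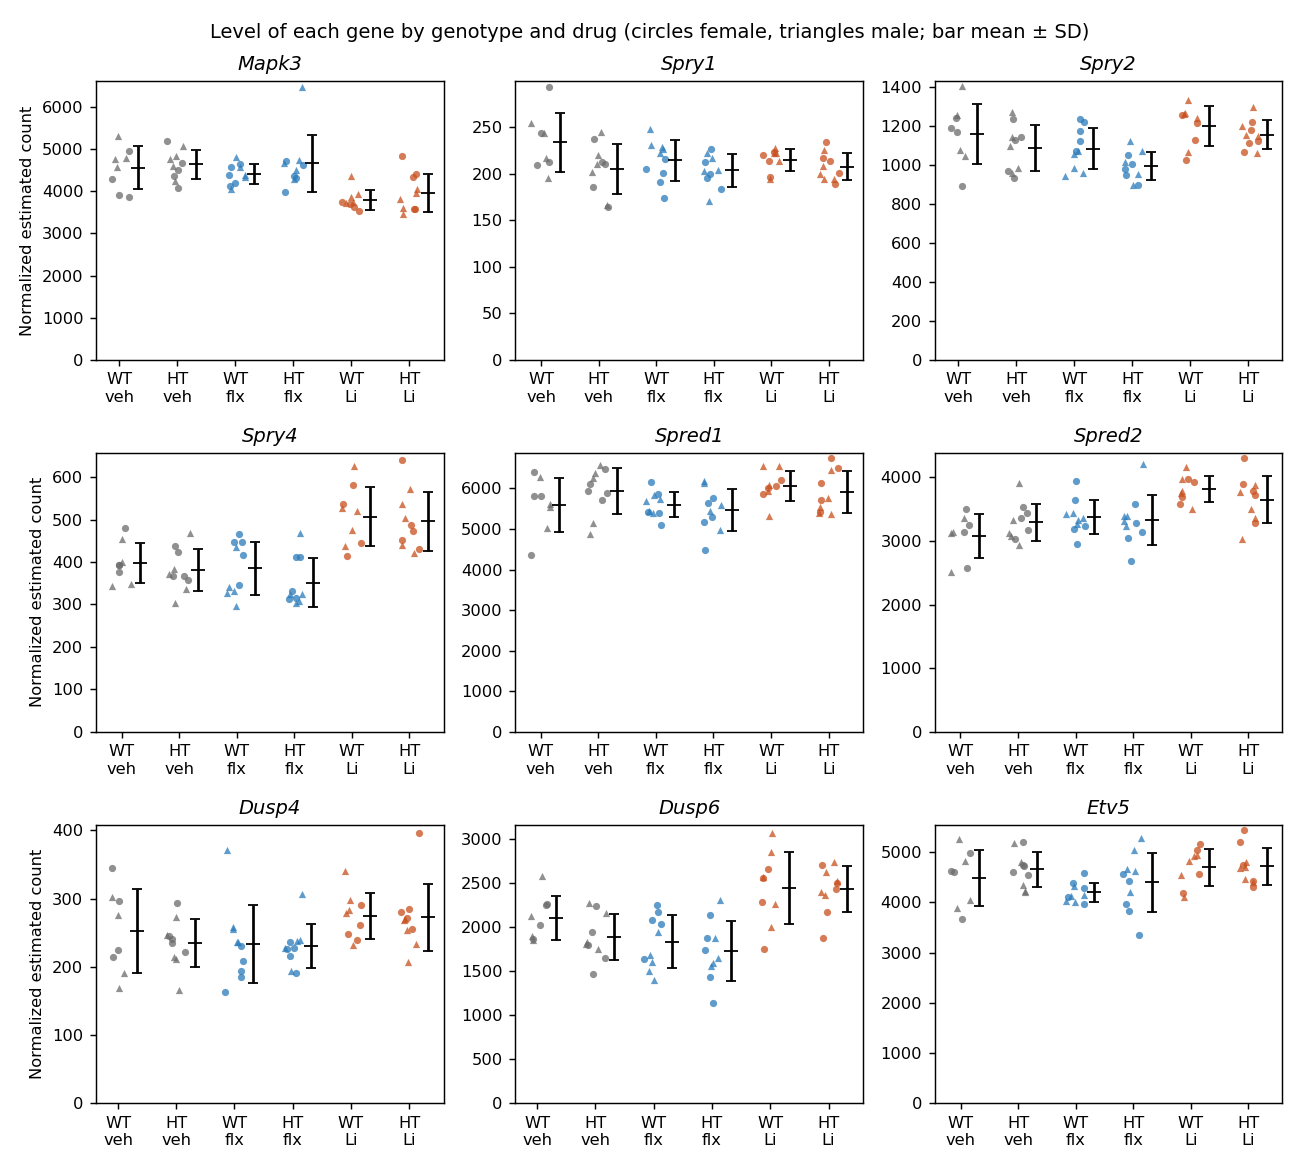
Normalized estimated count (vertical axis, from 0) of each of the 9 genes by genotype and drug, 1 point per library, circles for females and triangles for males, with bars for the mean ± SD. Mapk3 sits lower in the lithium arms (means of 3800.4 and 3961), while Spry4 (means of 508 and 496) and Dusp6 (means of 2447 and 2436) sit higher there than in the other arms.

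Among the feedback genes, Spry4 and Dusp6 showed the widest differences between drugs, and lithium had the highest mean in both genotypes. Spry4 (ENSMUSG00000024427, chromosome 18, 38586247 to 38601415, minus strand) encodes a Sprouty protein, an inhibitor of receptor tyrosine kinase signalling. Under vehicle the normalized count of Spry4 ran from 345 to 480.0, median 394, in WT and from 304 to 468, median 369.7, in HT. Under lithium it ran from 414 to 627, median 521, in WT and from 423 to 641, median 481, in HT. Under fluoxetine it ran from 296 to 465.7, median 381, in WT and from 303 to 469, median 325, in HT. Every lithium library lay above the vehicle median of its genotype, and 5 of 9 in WT and 6 of 10 in HT lay above the highest vehicle library, although the ranges overlapped. The means were 399 ± 47.1 in WT vehicle and 382 ± 49.1 in HT vehicle against 508 ± 70.5 in WT lithium and 496 ± 69.6 in HT lithium (SD, n = 8, 10, 9 and 10). The log2 difference of lithium from vehicle over both genotypes was 0.36 ± 0.07 (SE, limma, adjusted p = 0.000204), a fold of 1.28, with 0.34 ± 0.10 in WT and 0.38 ± 0.09 in HT. Against fluoxetine it was 0.45 ± 0.06 (adjusted p = 7.47e-06), and 19 of 19 lithium libraries were above the fluoxetine median.

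Dusp6 (ENSMUSG00000019960, chromosome 10, 99263231 to 99267489, plus strand) encodes a cytoplasmic phosphatase that acts on ERK. Under vehicle the normalized count of Dusp6 ran from 1859 to 2579, median 2075, in WT and from 1472 to 2278, median 1817, in HT. Under lithium it ran from 1749.7 to 3070.4, median 2561, in WT and from 1879 to 2743, median 2468, in HT. Under fluoxetine it ran from 1406 to 2259, median 1817, in WT and from 1144 to 2312, median 1697, in HT. In HT 10 of 10 lithium libraries were above the vehicle median and 8 above the highest vehicle library. In WT 7 of 9 were above the median, 3 above the highest and 1 below the lowest vehicle library, so WT lithium held both high and low values. The means were 2109 ± 251 in WT vehicle and 1892 ± 262 in HT vehicle against 2447 ± 413 in WT lithium and 2436 ± 258 in HT lithium (SD, n = 8, 10, 9 and 10). Over both genotypes the log2 difference was 0.28 ± 0.07 (SE, limma, adjusted p = 0.00505), a fold of 1.22. It was 0.37 ± 0.09 in HT and 0.20 ± 0.10 in WT, and the difference between those effects was 0.17 ± 0.14, with a 95% interval of -0.11 to 0.45. The fluoxetine arms had the lowest means of Dusp6, and the difference of lithium from fluoxetine was wider, at 0.46 ± 0.07 (adjusted p = 2e-05).

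Dusp4 (ENSMUSG00000031530, chromosome 8, 34807297 to 34819894, plus strand), a nuclear phosphatase of the same family, ran from 167 to 345 under vehicle, from 163 to 372 under fluoxetine and from 207 to 397 under lithium. The ranges overlapped nearly whole, although 16 of 19 lithium libraries were above the vehicle median. Its log2 difference of lithium from vehicle, 0.18 ± 0.08, did not pass (limma, adjusted p = 0.114), while that from fluoxetine, 0.24 ± 0.07, was just past the threshold (adjusted p = 0.0443). That call remained in 17 of 39 fits with a single library left out.

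Spred2 (ENSMUSG00000045671, chromosome 11, 19924375 to 20024026, plus strand), one of a pair of membrane-associated inhibitors of the step from Ras to Raf, was higher under lithium, most clearly in WT. Under vehicle the normalized count of Spred2 ran from 2516 to 3500.4, median 3144, in WT and from 2938 to 3916, median 3256, in HT. Under lithium it ran from 3502 to 4165, median 3783, in WT and from 3025 to 4298, median 3742, in HT. Under fluoxetine it ran from 2944 to 3937, median 3349, in WT and from 2678 to 4206, median 3299, in HT. In WT the ranges did not overlap, since all 9 lithium libraries exceeded the highest vehicle library. In HT 9 of 10 lithium libraries were above the vehicle median and only 1 above the highest. The means were 3077 ± 353 in WT vehicle and 3293 ± 291 in HT vehicle against 3818 ± 210.3 in WT lithium and 3652 ± 366 in HT lithium (SD, n = 8, 10, 9 and 10). The log2 difference was 0.32 ± 0.07 in WT (SE, limma, adjusted p = 0.00212) and 0.15 ± 0.06 in HT (adjusted p = 0.259). The test of the difference between these effects gave -0.17 ± 0.09, with a 95% interval of -0.35 to 0.01 (adjusted p = 0.694), and did not pass. Over both genotypes the difference was 0.23 ± 0.04 (adjusted p = 0.000357), a fold of 1.17.

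Spred1 (ENSMUSG00000027351, chromosome 2, 117121374 to 117182279, plus strand), the related inhibitor, differed little between lithium and vehicle. Its means were 5788 ± 614 under vehicle (SD, n = 18), 5535 ± 419.9 under fluoxetine (SD, n = 20) and 5983 ± 451 under lithium (SD, n = 19). The log2 difference of lithium from vehicle was 0.06 ± 0.04, with a 95% interval of -0.03 to 0.14, so a rise as large as that fitted for Spred2 lies outside it. The difference between Spred1 and Spred2 was not tested. Against fluoxetine 15 of 19 lithium libraries were above the median. That difference was not called, and was 0.099 to 0.125 over the 39 fits with a library left out. It was called with only the compared groups in the fit.

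The remaining members had no called difference of lithium from vehicle. Spry2 (ENSMUSG00000022114, chromosome 14, 105891947 to 105896819, minus strand), a Sprouty protein like Spry4, had means of 1119 ± 137 under vehicle (SD, n = 18), 1039 ± 99.4 under fluoxetine (SD, n = 20) and 1177 ± 88.7 under lithium (SD, n = 19). Its lowest mean was thus under fluoxetine, and 18 of 19 lithium libraries were above the fluoxetine median (log2 difference 0.18 ± 0.04, limma, adjusted p = 0.00834). Etv5 (ENSMUSG00000013089, chromosome 16, 22381309 to 22439719, minus strand), an ETS transcription factor induced by ERK, had means of 4584 ± 449, 4295 ± 433 and 4706 ± 356 in the same order. Its difference of lithium from fluoxetine was 0.14 ± 0.04 (limma, adjusted p = 0.0404), and the call remained in 19 of 39 fits with a single library left out. Spry1 (ENSMUSG00000037211, chromosome 3, 37639947 to 37644598, plus strand), a further Sprouty gene, ran from 164 to 293 under vehicle and stayed inside that range under both drugs, with a log2 difference of -0.04 ± 0.05 under lithium. Gm42922 lies on the other strand of Spry1, and whether reads were assigned by strand is not stated, so reads of the pair may be mixed.

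In all, lithium over both genotypes gave a call (adjusted p under 0.05 in limma) for 4 of the 9 genes, 3 higher and 1 lower, where 13.3% of all tested genes were called, 7.16% higher and 6.14% lower. The members' median log2 difference was 0.07, against -0.00 over all tested genes. In WT the called members were Mapk3, Spry4 and Spred2 (8.53% of all genes), and in HT they were Mapk3, Spry4 and Dusp6 (0.888% of all genes). No member passed the test of a difference in the lithium effect between genotypes (0% of all genes), and unadjusted p-values were all above 0.05, with the smallest, 0.0614, for Spred2. Lithium against fluoxetine gave 7 calls, 6 higher and Mapk3 lower (4.66% of all genes, 2.41% higher and 2.26% lower), with a median of 0.16 against -0.00. The comparison of lithium with fluoxetine shares its lithium libraries with that of lithium with vehicle. Because the members were chosen with such differences known, nothing is read from these counts against those shares.

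**Figure D2:**
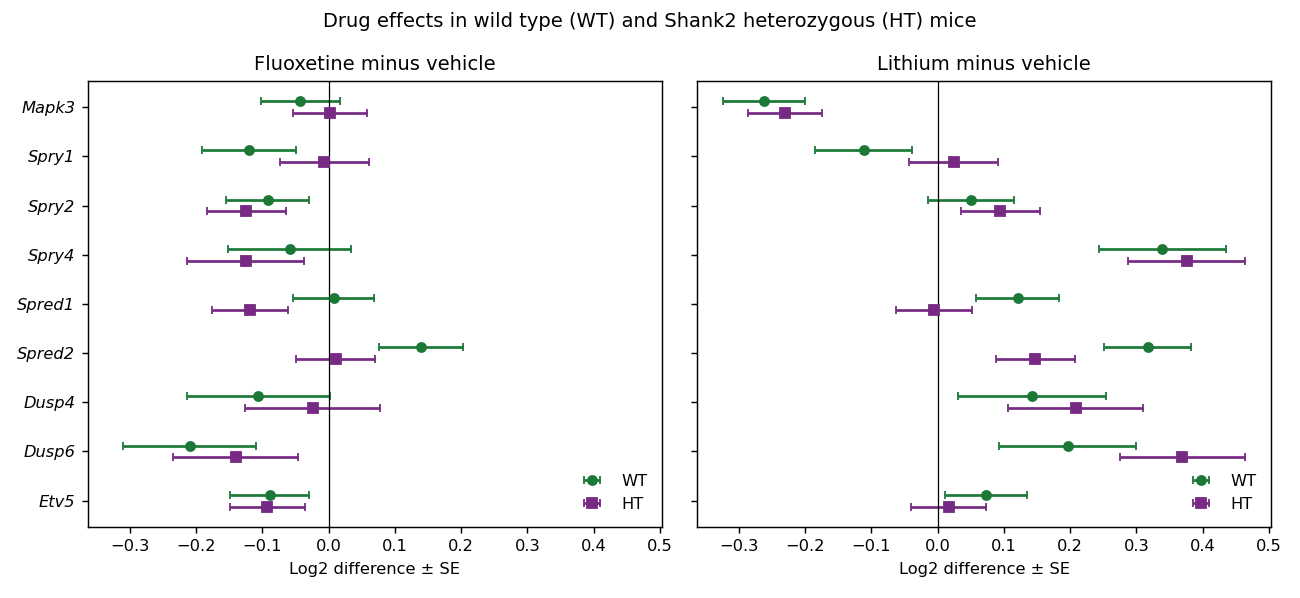
Log2 difference from vehicle ± SE (horizontal axis) of each gene for fluoxetine and for lithium, with WT and HT drawn apart. Under lithium Mapk3 lies below 0 in both genotypes (-0.26 and -0.23) and Spry4 above 0 in both (0.34 and 0.38), while the fluoxetine values lie between -0.21 and 0.14.

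The direction of the lithium differences was the same in each of the 4 strata of genotype and sex for the 4 called genes. The difference by which these genes were called is the mean of the 4 strata, so this agreement is largely set by that choice. Mapk3 had log2 differences of -0.21 in WT females, -0.31 in WT males, -0.14 in HT females and -0.32 in HT males. Spry4 had 0.26, 0.42, 0.34 and 0.42 in the same order. Dusp6 had 0.13, 0.27, 0.37 and 0.37, and Spred2 had 0.29, 0.34, 0.20 and 0.10. Mapk3, Spry4 and Dusp6 thus had the stronger difference in males in both genotypes, for Dusp6 in HT by little (0.366 in females and 0.372 in males). Spred2 had it in males in WT and in females in HT. No member passed the limma test of a difference in the lithium effect between the sexes, and unadjusted p-values were 0.115 or more.

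The calls against vehicle depended on the length trend. Once the trend was added to the model, the lithium difference over both genotypes was -0.20 ± 0.05 for Mapk3 (limma, adjusted p = 0.0395), 0.27 ± 0.08 for Spry4 (adjusted p = 0.0864), 0.18 ± 0.05 for Spred2 (adjusted p = 0.0968) and 0.21 ± 0.09 for Dusp6 (adjusted p = 0.239). All 4 kept their direction, the sizes shrank by less than the spread between libraries, and Mapk3 alone remained called. Over all genes the calls went from 2216 to 153. The differences of lithium from fluoxetine moved less with the length term: Spry4 had 0.42 ± 0.06 (adjusted p = 2.02e-05), Dusp6 0.44 ± 0.07 (adjusted p = 5.49e-05) and Mapk3 -0.21 ± 0.04 (adjusted p = 0.000873), and 6 of the 7 calls remained, with Dusp4 lost. The median transcript length was 823 bases for Mapk3, 4755 for Spry4, 2852 for Spred2 and 1617.5 for Dusp6. Among the members not called against vehicle it ran from 489 (Etv5) to 3728 (Spred1). The trend moves with the drug, and how much of each difference it carries was not tested.

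None of the 9 tested olfactory bulb markers was called for lithium against fluoxetine in limma, while 9 were at an unadjusted p under 0.05 (20.7% of all genes). All 9 had values below 0, with a median log2 difference of -0.77, and the summed levels under the drugs overlapped. These markers may share a source and are not independent of each other. With the mean levels of the olfactory bulb and striatal markers as terms, Spry4 kept a lithium difference from vehicle of 0.35 ± 0.07 (limma, adjusted p = 0.000413), Dusp6 of 0.27 ± 0.07 (adjusted p = 0.00888), Spred2 of 0.21 ± 0.04 (adjusted p = 0.000849) and Mapk3 of -0.24 ± 0.04 (adjusted p = 0.000118), and Dusp4 was then called too (0.22 ± 0.07, adjusted p = 0.0383). Against fluoxetine Spry4, Dusp6, Mapk3, Spry2 and Dusp4 remained called, and Spred2 (0.12 ± 0.05, adjusted p = 0.156) and Etv5 (0.11 ± 0.04, adjusted p = 0.133) did not. Without WT vehicle male replicate 2, the library apart in the length trend, the 4 calls over both genotypes remained. The log2 differences were -0.24 for Mapk3, 0.34 for Spry4, 0.24 for Spred2 and 0.31 for Dusp6. In WT alone Spry4 was then at 0.31 ± 0.10 (adjusted p = 0.0512) and its call was lost, as it was without WT lithium female replicate 4 or WT lithium male replicate 3, and with only the compared groups in the fit (0.34, adjusted p = 0.0639). The calls in HT were less steady: leaving out HT lithium female replicate 5, HT lithium male replicate 1 or HT vehicle female replicate 2 left 0 of the 3, with Spry4 at 0.33, 0.35 and 0.36, and leaving out HT lithium male replicate 3, HT vehicle male replicate 1 or HT vehicle male replicate 3 left 1. Over the 20 fits with an HT library left out, the call remained in 17 for Spry4, 11 for Mapk3 and 9 for Dusp6.

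**Figure D3:**
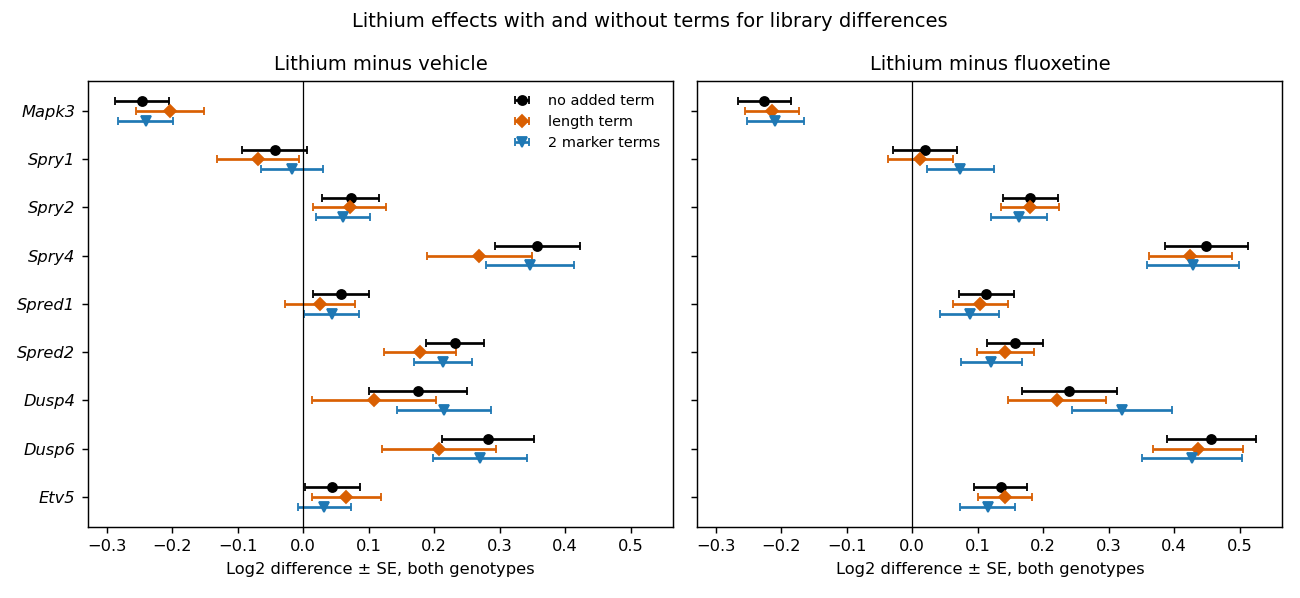
Log2 difference ± SE over both genotypes (horizontal axis) for lithium against vehicle and lithium against fluoxetine, from the fit without terms, with the length term, and with the marker terms. Against vehicle Spry4 moves from 0.36 to 0.27 with the length term, and against fluoxetine from 0.45 to 0.42.

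Fluoxetine gave no call for any member against vehicle in limma, in WT (0.84% of all genes called), in HT (0.33%) or over both genotypes (4.75%). At an unadjusted p under 0.05 there were 2, 2 and 3 members, where 15.2%, 14.6% and 20.2% of all genes were. The 3 over both genotypes were Dusp6 (-0.17 ± 0.07, adjusted p = 0.132), Spry2 (-0.11 ± 0.04, adjusted p = 0.137) and Etv5 (-0.09 ± 0.04, adjusted p = 0.199), which encode an ERK phosphatase, an upstream inhibitor and an ERK-induced factor. Without WT vehicle female replicate 1 the value for Spry2 was -0.13 ± 0.04 and passed (adjusted p = 0.0337). Dusp4 differed most between the sexes, with -0.44 in WT females and -0.17 in HT females against 0.23 in WT males and 0.12 in HT males. The test of this difference gave 0.48 ± 0.15 (males minus females, unadjusted p = 0.00226) and did not pass over all genes (adjusted p = 0.227, 0.006% of all genes called). The WT male value of Dusp4 includes WT fluoxetine male replicate 2, a library apart at 372, where the rest of its group ran from 236 to 258.

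Heterozygosity for Shank2 gave no call for any member in limma under vehicle (0.762% of all genes called), fluoxetine (0.222%), lithium (0.114%) or over the 3 treatments (3.74%). At an unadjusted p under 0.05 there were 2 members over the treatments, Spry1 and Spry2, where 18.9% of all genes were. Spry1 had 205 ± 19.7 in HT (SD, n = 30) and 220.1 ± 23.5 in WT (SD, n = 27), a log2 difference of -0.10 ± 0.04 (adjusted p = 0.136). Spry2 had 1079 ± 111 in HT and 1145 ± 127 in WT, a log2 difference of -0.09 ± 0.04 (adjusted p = 0.163). For Spred1 and Spred2 the 95% interval of the genotype difference was -0.07 to 0.07 on the log2 scale. Of the 117 other pathway genes tested, 3 were higher and 2 lower in HT over the treatments, among them Rasgrp2, a Ras exchange factor (-0.24 ± 0.06, adjusted p = 0.00942), the receptor gene Kit (0.10 ± 0.03, adjusted p = 0.012) and Epha4 (0.14 ± 0.04, adjusted p = 0.0307). In the order of the 6 arm means, Spry4 and Dusp6 had a gap larger than the SD of both neighbours between HT lithium, the lower of the lithium arms, and WT vehicle, the next arm. For the other 7 genes no neighbouring arms differed by more than the larger SD.

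Whether the genes vary together was read from the deviations of the 57 libraries from the means of their 12 groups of genotype, drug and sex, a measure that the differences between arms do not enter. Of 36 pairs, 13 passed (permutation test within groups, Benjamini-Hochberg over the 36 pairs), and in all of them the genes rose and fell together. What share of pairs among all tested genes would pass was not computed. The 13 lay within 6 genes, Spry2, Spry4, Spred1, Spred2, Dusp6 and Etv5, which form 15 pairs. Only Spry4 with Etv5 (r = 0.13) and Dusp6 with Etv5 (r = 0.31) did not pass among these. The closest pair was Spred1 and Spred2, with Pearson r = 0.80 and Spearman rho = 0.78 (permutation p = 1e-05 for both, the smallest that the permutations can give, adjusted p = 0.00012 for r) and r = 0.79 without the 2 libraries farthest from the median of Spred1. Among 16658 genes Spred1 ranked 1 by its r with Spred2, and Spred2 ranked 2 by its r with Spred1. Other passing pairs ranked lower, down to Dusp6 at 751 by its r with Spry2 and at 531 by its r with Spred1. Spred1 and Etv5 followed (r = 0.72, rho = 0.70, permutation p = 1e-05, adjusted p = 0.00012, r = 0.69 without 2 libraries). Spred2 and Dusp6 had r = 0.56 and rho = 0.54 (permutation p = 1e-05 and 6e-05, adjusted p = 0.00012 for r, r = 0.51 without 2 libraries), and Spry4 and Dusp6 had r = 0.53 and rho = 0.50 (permutation p = 0.00019 and 0.00054, adjusted p = 0.00137 for r, r = 0.46 without 2 libraries).

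Mapk3, Spry1 and Dusp4 took no part in a passing pair. Mapk3 and Spry4, which differed in opposite directions under lithium, had r = -0.32 and rho = -0.27 within groups (permutation p = 0.0461 and 0.0619, adjusted p = 0.104 for r). With the length trend taken out, 13 pairs passed again, and r for Spred1 and Spred2 was 0.79. The olfactory bulb and striatal marker levels were not taken out of these correlations. Leaving out single libraries gave 12 to 14 pairs.

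**Figure D4:**
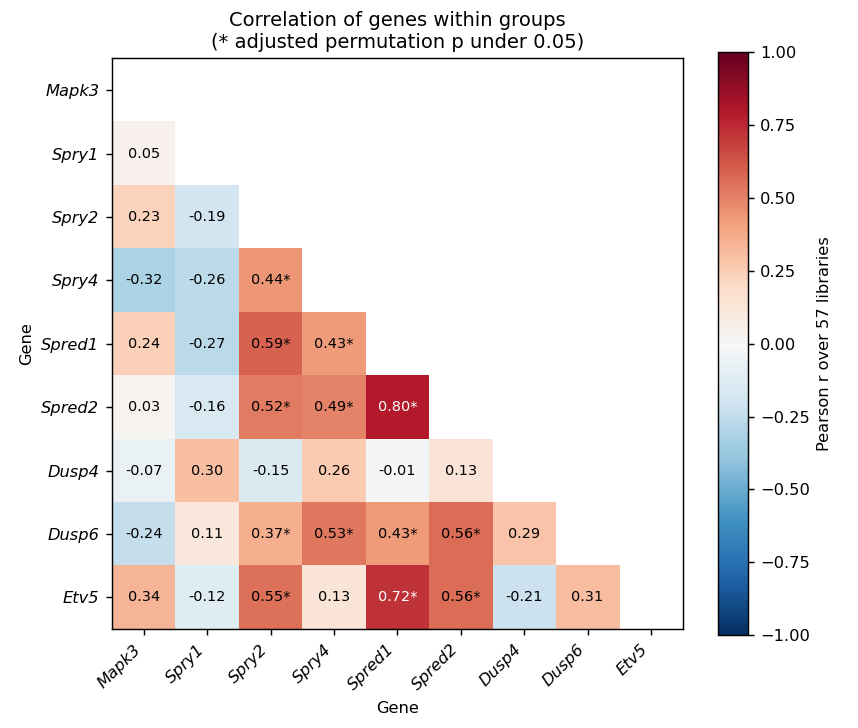
Pearson r between pairs of the 9 genes over 57 libraries after subtraction of group means, as a colour scale, with asterisks for adjusted permutation p under 0.05. The 13 marked pairs lie among Spry2, Spry4, Spred1, Spred2, Dusp6 and Etv5, with the highest r, 0.80, for Spred1 and Spred2.

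Start-site sequences were read for 6 of the 9 genes, Spry1, Spry2, Spred1, Spred2, Dusp6 and Etv5, in RefSeq windows (GRCm38.p6). The motif reading does not cover the other members. The 250 bases before the annotated start are shown for Dusp6, Spred1 and Spry2, of the genes that varied together, and for Spry1, which was in no passing pair, 5′ to 3′ on the strand of the gene. Capitals mark a match to CGGAAG, the core of the motif bound by ETS factors, on either strand.
Dusp6 (chr10:99262981-99263230, plus strand): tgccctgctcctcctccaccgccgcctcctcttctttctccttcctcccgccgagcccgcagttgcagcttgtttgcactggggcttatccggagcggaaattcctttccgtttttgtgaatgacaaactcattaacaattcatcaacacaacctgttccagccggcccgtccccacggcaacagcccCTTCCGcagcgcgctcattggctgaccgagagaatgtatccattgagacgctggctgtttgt
Spred1 (chr2:117120821-117121070, plus strand): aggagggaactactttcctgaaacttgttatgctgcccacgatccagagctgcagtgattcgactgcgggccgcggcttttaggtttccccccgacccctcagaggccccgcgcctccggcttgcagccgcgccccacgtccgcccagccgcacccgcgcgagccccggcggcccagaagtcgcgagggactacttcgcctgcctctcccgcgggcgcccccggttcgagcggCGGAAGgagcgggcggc
Spry2 (chr14:105896820-105897069, minus strand): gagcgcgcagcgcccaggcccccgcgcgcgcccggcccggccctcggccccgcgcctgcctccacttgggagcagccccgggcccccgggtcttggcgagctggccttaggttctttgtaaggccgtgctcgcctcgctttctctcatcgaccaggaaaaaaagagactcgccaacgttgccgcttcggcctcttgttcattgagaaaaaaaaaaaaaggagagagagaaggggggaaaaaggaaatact
Spry1 (chr3:37639697-37639946, plus strand): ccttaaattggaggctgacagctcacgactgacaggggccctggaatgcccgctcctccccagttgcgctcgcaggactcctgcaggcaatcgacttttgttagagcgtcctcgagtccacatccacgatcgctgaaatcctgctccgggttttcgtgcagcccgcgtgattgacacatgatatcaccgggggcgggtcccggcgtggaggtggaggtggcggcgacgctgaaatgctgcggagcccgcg
The match begins 62 bases before the start in Dusp6, 17 bases before it in Spred1 and, in Spred2, 43 bases before it, beside a match to TGACG, part of the cyclic AMP response element, that begins 51 bases before the start. No match was found in the windows of Spry2 and Etv5, which also varied with the others, or of Spry1. CGGAAG, a shorter form of the motif chosen after these windows were seen, occurred in 13.6% of all 32851 windows of this length and TGACG in 17.8%. Neither the longer ETS form CCGGAAG (6.91% of all windows, of which CGGAAG is part) nor TGACGTCA (1.55%), TGANTCA, the AP-1 motif (6.75%), or TATAAA (12.4%), each searched on both strands, was found in the windows of the 6 genes. The GC content of the 4 windows shown was 56.4% for Dusp6, 70.8% for Spred1 and 62.4% for both Spry2 and Spry1, against a median of 52.4% over all windows. A match is a run of letters and no evidence of binding.

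The rest of the pathway was read from lists of other genes, 117 tested in all without the parallel JNK and p38 branches, of which 11 were called higher and 6 lower for lithium against vehicle over both genotypes (13.3% of all genes called), with a median log2 difference of 0.03. These calls, and those of the other lists below for this comparison, come from the fit without the length term. With that term the calls over all genes went from 2216 to 153. Among 14 cascade kinases and scaffolds, 4 were lower and 2 higher. The 4 lower were the MEK genes Map2k1 (-0.10 ± 0.03, limma, adjusted p = 0.0108) and Map2k2 (-0.16 ± 0.04, adjusted p = 0.00434), Pebp1, which encodes a Raf inhibitor (-0.19 ± 0.03, adjusted p = 4.49e-05), and Pea15a, an ERK-binding protein (-0.11 ± 0.02, adjusted p = 0.00107). The Raf kinase gene Braf (0.13 ± 0.04, adjusted p = 0.0104) and the scaffold gene Ksr2 (0.20 ± 0.06, adjusted p = 0.0209) were higher. Mapk3 was thus lower together with both MEK genes. Of the 23 genes for Ras proteins and their regulators, 4 were higher and 1 lower. They included Sos1, a Ras exchange factor (0.18 ± 0.04), Nf1, a Ras GTPase activator to which SPRED proteins bind (0.16 ± 0.04), and Rras2 (-0.13 ± 0.04).

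The other targets and brakes of the pathway were counted for lithium against vehicle over both genotypes, where 13.3% of all genes were called, 7.16% higher and 6.14% lower. None of 9 other dual-specificity phosphatase genes was called, with 1 at an unadjusted p under 0.05 (27.9% of all genes), and their median log2 difference was 0.04. Of 17 other feedback and readout genes, Bmpr2 (0.17 ± 0.04, limma, adjusted p = 0.00393) and Plaur (0.45 ± 0.12, adjusted p = 0.00741) were higher. Of 25 receptor and adaptor genes 1 was higher, Shc3 (0.31 ± 0.10, adjusted p = 0.0272). Of 22 immediate early genes, which neuronal activity and ERK induce, 1 was higher, Ier5 (0.32 ± 0.07, adjusted p = 0.00209). Of 7 genes for kinases that ERK activates, Rps6ka3 was higher (0.17 ± 0.04) and Rps6ka2 lower (-0.16 ± 0.05). Of 10 genes of the parallel JNK and p38 branches, not among the 117, 5 were higher, among them Mapk9 (0.10 ± 0.02, adjusted p = 0.00213) and Mapk8 (0.14 ± 0.04, adjusted p = 0.00726).

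Against fluoxetine, 7 of the 22 immediate early genes were called higher under lithium and none lower (2.41% of all genes were called higher), with a median log2 difference of 0.23. They included Egr2 (0.76 ± 0.18, limma, adjusted p = 0.00916), Egr1 (0.43 ± 0.10, adjusted p = 0.011) and Arc (0.64 ± 0.17, adjusted p = 0.0203), of which none was called for either drug against vehicle.

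The genes outside the set whose level was most like the mean standardized level of the 8 members other than Mapk3, over the 57 libraries, were Zdhhc5 (r = 0.75), Pdp1 (r = 0.75), Ptpn9 (r = 0.73), Homer1 (r = 0.70) and Ptgs2 (r = 0.69). Their Spearman rho ran from 0.65 to 0.75, and r without the 2 farthest libraries from 0.63 to 0.75. The same measure, in which each member takes part in the mean, was 0.82 for Dusp6 and 0.79 for Spred2, while it was 0.50 for Dusp4 and 0.13 for Spry1. Mapk3, which did not enter the mean, had r = -0.33. These values hold the differences between arms and between libraries together and are given as a description.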

How the data were processed

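RNA from the prefrontal cortex of 57 mice was sequenced after stranded poly(A) library preparation, per the labels' protocols. The deposited table holds the authors' signal per gene and library, namely normalized estimated counts that are never negative and not whole. The submitters' processing notes list DESeq2 1.19.11, Salmon 0.11.2 and R 3.6.0 as tools and GRCm38 as the build. Annotation release, filters and strandedness of the quantification are not stated. Whole reads could not be had from the values, so the depth and counting error of a value are unknown and no count test was run. A total of 51285 of 51456 identifiers had a symbol, and 0 columns were left unmatched. Positions of genes come from GENCODE vM21 (GRCm38), with the first base numbered 1.

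Genes with a mean of at least 10 were tested on log2(value + 1) by limma 3.58.1 (R 4.3.3), moderated with a mean-variance trend and robustly. The pseudocount of 1 understates changes of low genes. All 57 libraries entered 1 fit of 12 groups of genotype, drug and sex, and each effect is the mean of the female and male effects. Benjamini-Hochberg adjustment ran over the 16659 genes, with calls under 0.05. The procedure was first tested on simulated data. For limma, deviations from group means were shuffled within sex, so no length trend moved with the drug there. That test thus cannot speak to calls that depend on the trend. The ± after a log2 difference is the SE and the ± after a level is the SD. The length trend is the rank correlation, across genes, of a library's deviation with median transcript length. Alternatives were pseudocounts of 0.5 and 5, no filter and a mean of at least 50, rescaling by TMM factors, limma without trend or robust moderation, 6 arms with sex as a term, a replicate block, the length term, only the groups compared, each library left out, and, chosen after seeing the data, marker terms. The TMM factors came from an unweighted implementation.

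The members and lists were chosen with earlier results of these data known. Named beside the members are up to 4 called genes of each pathway list by smallest adjusted p, with Map2k1 and Ksr2 chosen after their values were seen, the 5 genes most like the members, and Shank2. Not every gene so selected is described, and some items are not reported here. Spry3 and Rps6ka4 were not analysed here, and Fosl1, Lif, Mapk13, Folr1, Otx2 and Lhx1 were below the minimum mean.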

Additional observations from a re-analysis of the deposited data

Results flagged for a closer look

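In 6 of 108 combinations of a gene and a group of 4 or 5 libraries, 1 library stood apart from the rest of its group. Chance alone flags about 1 in 20 such groups. Mapk3 had 6463 in HT fluoxetine male replicate 3, where the other 4 libraries ran from 4297 to 4744. Spry4 had 469 in HT fluoxetine male replicate 5, against 303 to 326 in the others, and Spred2 had 4206 in the same library, against 3231 to 3396. Spry4 had 641 in HT lithium female replicate 5, against 431 to 487, and Dusp4 had 397 there, against 256 to 285. Dusp4 had 372 in WT fluoxetine male replicate 2, against 236 to 258. In each case the library apart was the highest.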

How the results depend on the processing

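All 3816 values of the members under the alternatives were within 1 SD of the main values, the SD being that between single libraries within groups. This is a loose bound. That SD is wider than the SE of a difference, and most alternatives leave out a single library. Calls were lost within it. No called value changed sign, in 719 alternative values. Of 3097 alternative values of the uncalled differences 117 had the opposite sign, in 18 of the 82 uncalled differences, whose main values were at most 0.0507 from 0 on the log2 scale. The number of members called for lithium in HT went from 3 to 1 without the filter on low values, where more genes share the adjustment, and to 0 with the length term. With the length term it went from 3 to 0 for lithium in WT and from 4 to 1 for lithium over both genotypes, and the cause was not tested. Leaving out single libraries gave 0 to 3 calls for lithium in HT, 2 to 3 in WT, 4 over both genotypes, 5 to 7 for lithium against fluoxetine and 0 to 1 for fluoxetine over both genotypes. Over all genes, lithium over both genotypes gave 2216 calls, 1501 without the filter and 153 with the length term. In WT it gave 1421 calls, 884 without the filter, 204 with only the groups compared and 62 with the length term. In HT it gave 148 calls, 79 without the filter and 1 with the length term. Lithium against fluoxetine gave 777 calls, 470 without the filter, 445 with the marker terms and 1312 with only the groups compared. Fluoxetine over both genotypes gave 791 calls, 469 without the filter and 74 with the length term. Genotype under vehicle gave 127 calls, 64 without the filter, 54 with sex as an additive term, 54 with the marker terms and 8 with only the groups compared. Single libraries also moved these counts: fluoxetine in WT gave 140 calls, 5 without WT vehicle male replicate 2 and 563 without WT vehicle male replicate 1, and fluoxetine in HT gave 55, 19 without HT vehicle female replicate 3 and 171 without HT vehicle male replicate 2. Genotype gave 34 calls under vehicle without HT vehicle female replicate 5 and 394 without WT vehicle male replicate 1, and under fluoxetine 37, with 8 without HT fluoxetine male replicate 3. Under lithium it gave 19, with 7 without WT lithium female replicate 1. Lithium gave 56 to 226 in HT, lowest without HT lithium female replicate 5, and 796 to 1979 in WT, lowest without WT lithium female replicate 4. Fluoxetine over both genotypes gave 486 to 1288, lowest without WT vehicle male replicate 2 and highest without WT vehicle female replicate 1. Lithium over both genotypes (1721 to 2644) and against fluoxetine (602 to 1129) moved by less than 1.5 times. TMM rescaling moved no median of all genes by over 0.1 on the log2 scale. With the replicate block the counts of called members were unchanged at 3, 3, 4 and 7 for lithium in HT, in WT, over both genotypes and against fluoxetine. Libraries that share a replicate number had a mean correlation of deviations of -0.00772, against 0.00203 for different numbers, so no pairing by these numbers was seen on average. Pairing within single groups was not tested. The numbers are those of the sample titles, which for WT vehicle females differ in part from the library names. The unknown read depth limits Spry1, Dusp4 and Spry4 most, whose normalized counts are the lowest.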
